A study of Rattus rattus with 24 samples.

Results

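Rat oligodendrocyte precursor cells (OPCs) given quetiapine for 48 hours were compared with OPCs given quetiapine and the thyroid hormone T3 together over that time. The aim was to examine what T3 added to gene expression when given at the same time as quetiapine. The comparison used 6 of the 24 arrays of the study, chosen by their labels: 3 from cultures given quetiapine at 1 μM and 3 from cultures given quetiapine at 1 μM plus T3 at 45 nM (the combination), paired by the number of the biological replicate. The other arrays held cultures given T3 or vehicle alone at 48 hours, and all 4 conditions at 96 hours. All 8 conditions shared the same history: cortical cells from rat pups 4 to 7 days old were selected with A2B5 microbeads, expanded with the mitogen PDGF and then moved to OPC media with the compounds or with DMSO vehicle. The same B27-supplemented media, which carries a little T3 of its own, were described for these cultures, so that T3 here means hormone added on top of the media. The cells were not cultured with neurons, and the sources used here do not state how many pups stood behind each preparation.

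T3 acts mostly inside the cell. It enters through membrane transporters, can be bound in the cytoplasm or inactivated by deiodinases, and binds nuclear thyroid hormone receptors that sit on DNA and switch from repressing to activating their target genes. In the oligodendrocyte lineage T3 is known as a timing signal that helps dividing precursors leave the cell cycle and mature into myelinating cells. Quetiapine is an antipsychotic drug that binds dopamine, serotonin, adrenergic, histamine and muscarinic receptors.

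Expression was measured on a 1-colour Affymetrix rat array, on which each probe set gives a log2 value for the transcripts it matches, so that a change of 1 is a doubling. The array held 31099 probe sets, and 31042 were tested after removal of 57 controls. The 6 arrays had medians of 6.43 to 6.47 and highest values of 14.2 to 14.3, and arrays of the same condition correlated at 0.990 to 0.995. Over the whole marker lists, the mean log2 level of the 12 OPC genes was 9.69 to 10.3 with quetiapine and 9.74 to 10.2 with the combination, and that of the 28 myelin genes was 9.29 to 9.76 and 9.55 to 10.3. The means of the 14 microglia markers (5.26 to 5.64 and 5.21 to 5.63) and of the 12 vascular and fibroblast markers (4.49 to 4.60 and 4.52 to 4.59) lay below the array medians. The 11 astrocyte markers, several of which are also expressed by OPCs, averaged 9.63 to 10.1 and 9.46 to 10.1. Of these marker lists, astrocyte markers had 1 gene that rose and 1 that fell, microglia and vascular markers none. The beta-actin control probe sets had a 3′ signal above the 5′ signal by 0.611 to 0.647 with quetiapine and by 0.581 to 0.585 with the combination on the log2 scale, a small gap that was lower with the combination in all 3 pairs. The same gap for hexokinase was wider, at 2.52, 2.06 and 1.72 with quetiapine and 2.14, 1.79 and 1.58 with the combination, and also lower in all 3 pairs, by 0.26 on average, whereas that for GAPDH moved both ways by at most 0.06. These control probe sets are a measure of RNA integrity, and their part in the results below was not tested. RNA came from whole cultures, so that fewer cells of a type and less RNA per cell cannot be told apart.

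On adding T3 to quetiapine, the largest rises were larger than the largest falls, and more probe sets rose than fell by over 1.5-fold. Among the genes with the largest rises were the adenosine-producing enzyme Nt5e, the retinoid enzymes Rpe65 and Aldh1a1, the T3-binding protein Crym and the transporters Slc15a1 and Slc12a7, while the largest falls were smaller than 2.5-fold. A probe set was called where the fold change exceeded 1.5 and the adjusted p was under 0.05, by limma with the replicate number as a block. By this rule 468 probe sets were higher with the combination (1.51% of those tested) and 170 were lower (0.548%), standing for 291 and 109 genes with 1 symbol. At an adjusted p under 0.05 alone, without the limit on the fold, 1159 probe sets were higher (3.73%) and 1296 were lower (4.17%), so that without this limit the lower ones were more numerous. The counts of list members given below, which use the adjusted p alone, stand against these 2 shares. Changes over all probe sets ranged from −1.25 to 4.77, around a median of −0.00014. In 496 of the 638 called probe sets (77.7%) the 3 quetiapine arrays did not overlap with the 3 combination arrays, compared to 15.5% of all probe sets. Without the block, 173 probe sets were called higher and 31 lower, all of them among those above. Leaving out the 4 arrays of replicate 2 left 242 and 71 calls.

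Nt5e, the CD73 enzyme that makes adenosine from AMP outside the cell, had the largest rise of any gene with a symbol. Its log2 expression was 4.46, 4.18 and 4.27 in the quetiapine arrays and 8.75, 8.65 and 9.77 in the combination arrays. The quetiapine values were far below the median of an array and the combination values far above it, a rise of 4.76 ± 0.29 (SE, n = 3 pairs), or 27.0-fold (adjusted p = 8.72e-06). No detection calls were used, so that whether such low values lie above background was not tested, and the folds of genes near this level are those of the deposited values. Adk, which removes adenosine inside the cell, rose by 0.29 ± 0.07 (adjusted p = 0.0338), a call that was lost on leaving out any of the 9 arrays other than those of vehicle control (adjusted p up to 0.152). Adk did not pass without the block or without all arrays of any 1 replicate either, while Nt5e did. No other of the 13 measured genes of extracellular adenosine handling passed the test.

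Of the 12 largest rises, 2 were genes of retinoid metabolism. Rpe65, the isomerase of the visual cycle, had log2 expression of 4.80, 4.70 and 4.94 with quetiapine and 8.32, 8.62 and 9.30 with the combination, and rose by 3.93 ± 0.17 (adjusted p = 1.21e-06). Aldh1a1, which makes retinoic acid from retinaldehyde, had 4.63, 4.95 and 5.11 with quetiapine and 6.74, 8.21 and 8.57 with the combination. The groups of both genes lay well apart, although the combination array of replicate 1 was the lowest for each, and Aldh1a1 rose by 2.94 ± 0.22 (adjusted p = 3.84e-05). Rdh10, which oxidises retinol to retinaldehyde, rose by 0.49 ± 0.07 (adjusted p = 0.00218). Of 16 measured genes of retinoid metabolism and its receptors, 4 rose and none fell, around a median change of 0.07. The 4th was the receptor Rarg at low signal (0.47 ± 0.11, adjusted p = 0.0243), a call lost without quetiapine replicate 1 or 3 or combination replicate 2 or 3 (adjusted p up to 0.115).

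The remaining genes of the 12 largest rises had varied roles. Slc15a1, a transporter of small peptides, rose by 3.41 ± 0.15, the potassium chloride cotransporter Slc12a7 by 3.34 ± 0.24 and Flvcr2, a transporter of the FLVCR family, by 2.57 ± 0.15. Galnt14, which starts O-linked sugar chains, rose by 3.06 ± 0.18, and B3gnt2, which extends lactosamine chains, by 2.81 ± 0.19. Ninj2, an adhesion molecule, had 9.48, 8.66 and 7.47 with quetiapine and 11.31, 11.11 and 10.91 with the combination, a rise of 2.57 ± 0.32 in which the quetiapine arrays were spread widely and the combination arrays were alike. Dct, an enzyme of melanin synthesis, had 5.87, 6.21 and 8.05 with quetiapine and 8.05, 9.31 and 10.45 with the combination, so that the groups nearly touched, yet each pair moved by a similar amount (2.56 ± 0.19). Tnfaip8l1, of the TNFAIP8 family, rose by 2.54 ± 0.17. The adjusted p of all 12 genes was at most 0.00101, and each stayed under 0.05 without any single array. Without the block, Ninj2 and Dct were the exceptions that did not pass (adjusted p = 0.0991 and 0.212). The second probe sets of Slc12a7 and Flvcr2 changed by 0.10 and −0.01, so these rises were seen on 1 probe set of each gene.

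**Figure D1:**
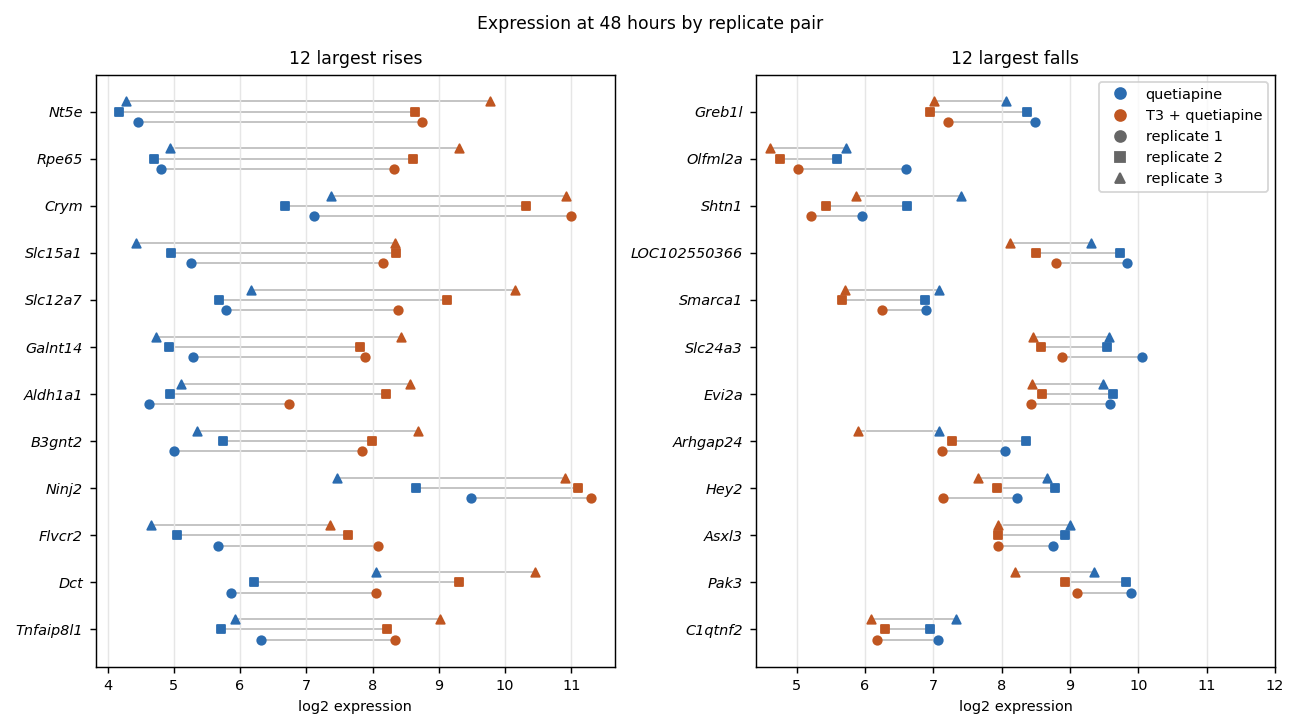
Log2 expression (horizontal axis) of the 12 genes with the largest rises (left) and the 12 with the largest falls (right) in the 3 quetiapine arrays and the 3 combination arrays at 48 hours, with grey lines joining the arrays of a replicate. The genes were chosen to move in the same direction in every pair, and the groups of Arhgap24 were the ones that overlapped.

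The falls were smaller and more alike. Greb1l, a relative of the oestrogen-responsive gene Greb1, had log2 expression of 8.485, 8.374 and 8.057 with quetiapine and 7.220, 6.957 and 7.002 with the combination, groups that lay apart, and fell by 1.25 ± 0.15 (2.37-fold, adjusted p = 0.000745). Olfml2a, a secreted olfactomedin-like protein, fell by 1.17 ± 0.21, the axon outgrowth protein Shtn1 by 1.16 ± 0.18, the uncharacterised gene LOC102550366 by 1.15 ± 0.12 and the chromatin remodelling ATPase Smarca1 by 1.09 ± 0.15. Slc24a3, a sodium, potassium and calcium exchanger, fell by 1.08 ± 0.13, Evi2a, a small gene that lies within an intron of Nf1, by 1.08 ± 0.18 and the GTPase-activating protein Arhgap24 by 1.06 ± 0.10. Hey2, a transcriptional repressor downstream of Notch, had 8.22, 8.78 and 8.65 with quetiapine and 7.14, 7.93 and 7.65 with the combination, without overlap (−0.97 ± 0.11, adjusted p = 0.000576). Asxl3, a chromatin protein linked to Polycomb, was almost identical among replicates, at 8.753, 8.928 and 8.997 compared to 7.943, 7.952 and 7.947 (−0.94 ± 0.06). Pak3, a kinase that acts on actin, fell by 0.94 ± 0.08 and the secreted protein C1qtnf2 by 0.93 ± 0.11. All 12 passed without any single array, with adjusted p values of 0.00705 or less in the full set. Without the block, Olfml2a, Shtn1, Evi2a, Arhgap24, Hey2 and Pak3 did not pass (adjusted p of 0.0835 to 0.423), and the second probe set of Olfml2a changed by −0.23.

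Known T3 target genes rose strongly in the presence of quetiapine. Of 12 measured genes on the list of thyroid hormone responsive genes, 8 rose and none fell, with a median change of 1.30 compared to −0.00014 over all probe sets. The list was drawn up with results of these arrays known, and is not independent evidence of the direction. Hr, which encodes the hairless corepressor, had 7.61, 7.44 and 7.59 with quetiapine and 9.93, 9.94 and 10.05 with the combination. The replicates were nearly identical within each group, and the rise was 2.42 ± 0.07 (5.36-fold, adjusted p = 2.50e-07). Klf9, a Krüppel-like transcription factor, had 7.87, 8.35 and 8.42 with quetiapine and 10.18, 10.48 and 10.54 with the combination, and rose by 2.18 ± 0.12 (adjusted p = 4.00e-06). Dbp, which carries circadian rhythms to output genes, had 7.63, 7.41 and 7.59 compared to 9.01, 9.05 and 9.30, and rose by 1.58 ± 0.08 (adjusted p = 3.26e-06). In all 3 genes every combination array lay more than 1 log2 unit above every quetiapine array.

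The other members that rose, besides Nt5e, were Ptgds, which makes prostaglandin D2 (1.51 ± 0.26), Flywch2, which encodes a zinc finger protein (1.32 ± 0.14), Thrsp, a regulator of lipid synthesis (1.28 ± 0.16), and Me1, the malic enzyme that supplies NADPH for lipid synthesis (0.85 ± 0.07). For Ptgds, Thrsp and Me1 the groups overlapped because the preparations differed in level, and each passed with the block (adjusted p of 0.00673 or less) but not without it (0.515 to 0.726). Thrsp, for example, was 7.93, 10.10 and 10.53 with quetiapine and 9.26, 11.67 and 11.46 with the combination. The 4 members that did not pass were Nrgn, a neuronal calmodulin-binding protein (−0.31 ± 0.09, adjusted p = 0.0515), and the kinase gene Camk4, the morphogen Shh and the retinaldehyde dehydrogenase Aldh1a3. These last 3 had log2 expression below 5 in every array and changes of 0.02 to 0.07. With the replicate as a random effect 5 of the 12 rose, as without the block.

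Few of the genes that handle the hormone itself passed the test, and those that did rose. Crym, the cytoplasmic T3-binding protein mu-crystallin, had 7.12, 6.68 and 7.37 with quetiapine and 11.00, 10.32 and 10.93 with the combination, more than 2.5 log2 units apart in every pairing of arrays, and rose by 3.69 ± 0.16 (adjusted p = 1.21e-06). Dio3, the deiodinase that inactivates T3, had 5.49, 5.68 and 5.65 with quetiapine and 6.43, 7.66 and 7.84 with the combination. All 3 combination arrays were higher, replicate 1 the least, and the rise was 1.70 ± 0.26 (adjusted p = 0.00351, and 0.102 without the block). The receptor Thrb rose by 0.41 ± 0.11 (adjusted p = 0.0421), which was lost without any of the 9 arrays other than those of vehicle control (adjusted p up to 0.178). The other 13 of 16 measured receptors, cofactors, transporters and deiodinases did not pass. The count of 3 was 2 with a random effect for the replicate and 1 without the block or without the arrays of replicate 2.

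Of 16 measured circadian clock genes, 5 rose and none fell, where 3.73% of all probe sets rose. The count was 3 with a random effect for the replicate or in the 6 arrays alone, 2 without the block or replicate 3, and 1 without replicate 2. Besides Dbp, the nuclear receptor Nr1d2 rose by 0.41 ± 0.06 (adjusted p = 0.00206), and both held without any single array. The others were Npas2 (0.80 ± 0.19), Bhlhe40 (0.73 ± 0.19) and Clock (0.22 ± 0.06), factors of the core clock and its repression. Leaving out 1 array gave counts of 2 to 5 risen clock genes. The count was 2 or 3 without any of the 9 arrays other than control replicates 1 and 3 and quetiapine replicate 1. Of 13 Krüppel-like factors, Klf9 was the 1 that rose, a share near that of all probe sets. None fell, but 1 did without combination replicate 2 and 2 without control replicate 3. Fos, the immediate early transcription factor, had 7.11, 7.45 and 8.10 with quetiapine and 9.21, 9.24 and 9.88 with the combination, groups without overlap, and rose by 1.89 ± 0.15 (adjusted p = 5.23e-05) on 1 of its 2 probe sets, the other changing by −0.01. The other 4 of 20 ERK feedback and immediate early genes past the test fell, among them the ETS factor Etv5 (−0.61 ± 0.08) and the feedback inhibitor Spry1 (−0.50 ± 0.08), around a median of −0.21. The remaining members that fell were Etv1 (−0.33 ± 0.09) and Spry4 (−0.31 ± 0.08). Without 1 of 6 arrays (T3 or quetiapine replicate 1, T3, quetiapine or combination replicate 2, or quetiapine replicate 3) the number that fell was 2, as it was with a random effect for the replicate or in the 6 arrays alone. It was 1 without replicate 1 and 0 without the block or replicate 2.

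**Figure D2:**
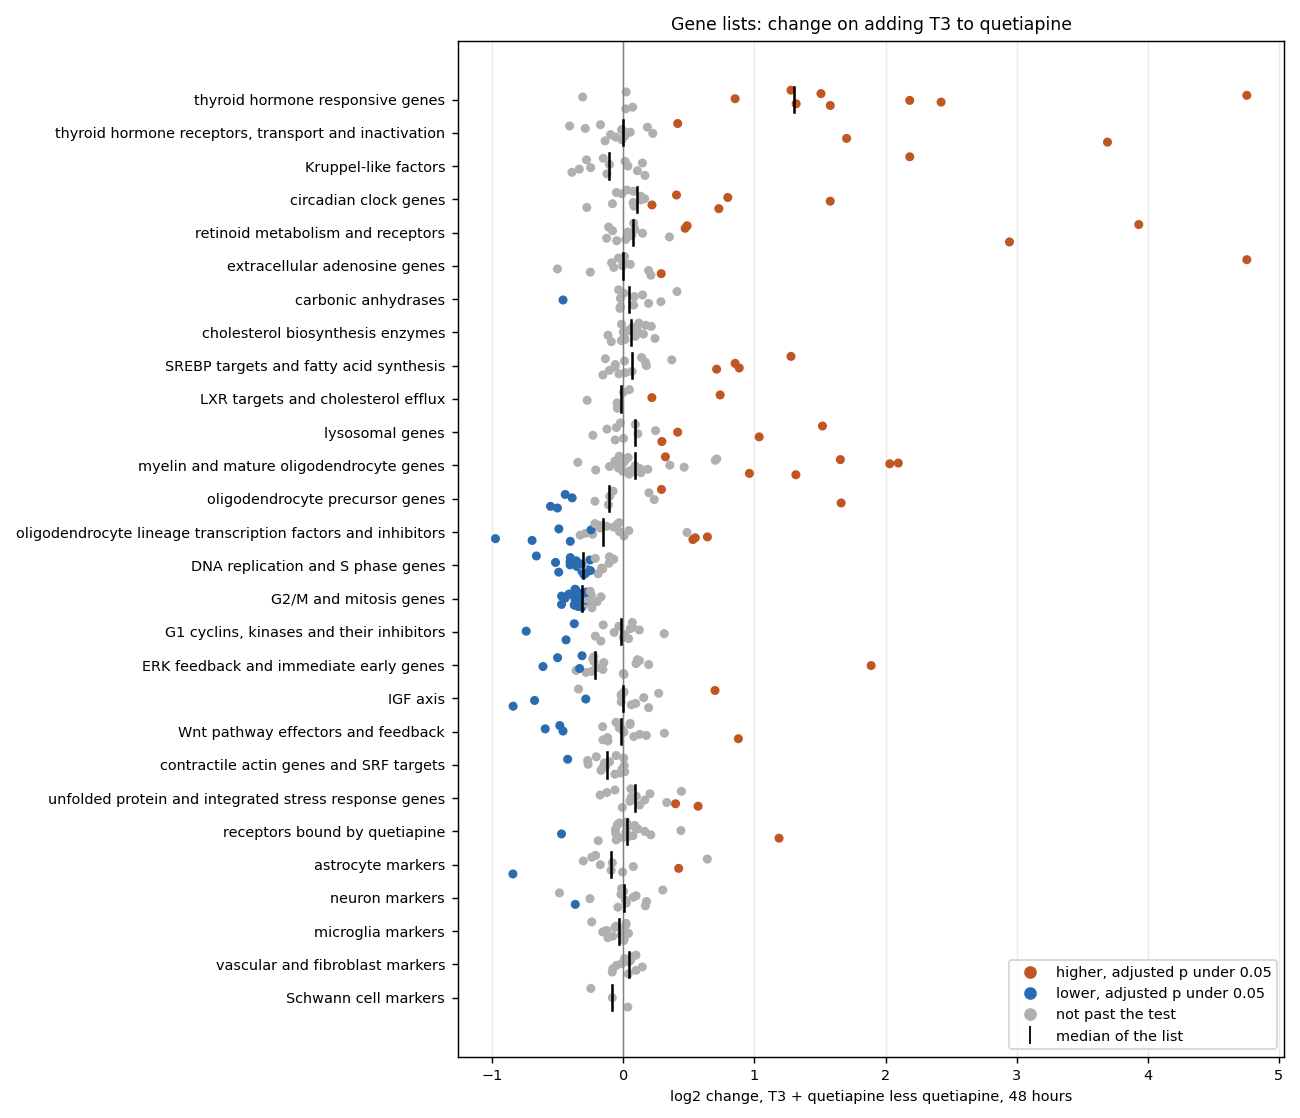
Log2 change on adding T3 to quetiapine at 48 hours (horizontal axis) for the measured members of 28 gene lists, 1 point a gene, coloured by the test, with a black bar at the median of the list. The 12 thyroid hormone responsive genes had a median of 1.30, and all 52 genes of the S phase and mitosis lists lay below 0.

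Myelin genes changed unevenly. Of 28 measured myelin and mature oligodendrocyte genes, 6 rose and none fell, with a median change of 0.09. With the replicate as a random effect 3 rose. Mog, a protein of the outer myelin surface, had log2 expression of 6.42, 6.23 and 6.83 with quetiapine and 7.67, 8.17 and 9.94 with the combination. The rise was seen in all 3 pairs and was largest in replicate 3 (2.10 ± 0.37, adjusted p = 0.00729). Aspa, which breaks down N-acetylaspartate, rose by 1.32 ± 0.18 (adjusted p = 0.00207) and the tetraspanin Cd9 by 0.96 ± 0.12 (adjusted p = 0.000985), each by a like amount in all pairs. Mog, Aspa and Cd9 passed without any single array. Mobp, a myelin basic protein of oligodendrocytes, rose by 2.03 ± 0.39 (adjusted p = 0.0105), but was not past the test without quetiapine replicate 1, quetiapine replicate 2 or combination replicate 3 (adjusted p up to 0.0563). Pmp2, a fatty acid binding protein of myelin, rose by 1.66 ± 0.31 (adjusted p = 0.00946, or 0.0553 without quetiapine replicate 3). The tetraspanin Tspan2 rose by 0.32 ± 0.07 and was lost without either array of pairs 1 and 2 or combination replicate 3 (adjusted p up to 0.130). Without the block none of these 6 genes passed, and no myelin gene did without the arrays of replicate 2.

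For other genes of myelin structure the change did not pass the test. Mbp, myelin basic protein, had 14.002, 14.121 and 14.280 with quetiapine and 14.028, 14.136 and 14.210 with the combination. These values were close to the highest on the arrays, the pairs moved both ways, and the change was −0.01 with a 95% interval of 0.12 on either side (adjusted p = 0.949). The enzyme Cnp changed by −0.00 ± 0.06 (SE), and the glycoprotein Mag by 0.09 ± 0.10. Opalin, a marker of mature oligodendrocytes, was low in both groups (4.58 to 4.66 and 4.47 to 4.77). Hprt1, a housekeeping gene, was at 9.62 to 9.65 and 9.60 to 9.61, a change of −0.03 with a 95% interval of 0.20 on either side.

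Precursor genes fell in part. Of 12 measured OPC genes, 4 fell and 2 rose, around a median of −0.11. The counts were 1 and 1 with the replicate as a random effect, 1 and 0 without replicate 2, and none passed without the block. The proteoglycan NG2, encoded by Cspg4, fell by 0.55 ± 0.08 (adjusted p = 0.00266), the secreted protein C1ql1 by 0.50 ± 0.07 and the retinaldehyde-binding protein Rlbp1 by 0.44 ± 0.07, each passing without any single array. The PDGF receptor Pdgfra, through which precursors are kept dividing, fell by 0.39 ± 0.10 (adjusted p = 0.0318), but was not past the test without T3 or quetiapine replicate 1, without T3, quetiapine or combination replicate 2, or without quetiapine or combination replicate 3 (adjusted p up to 0.121). In contrast Emid1, an extracellular matrix protein expressed by precursors, had 7.43, 7.64 and 7.19 with quetiapine and 8.39, 9.41 and 9.45 with the combination, without overlap, and rose by 1.66 ± 0.24 (adjusted p = 0.00236). The proteoglycan Vcan rose by 0.29 ± 0.06 (adjusted p = 0.00976, or 0.0566 without quetiapine replicate 3).

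Among 22 transcription factors and inhibitors of the lineage, 5 fell and 3 rose, with a median of −0.15. With a random effect for the replicate 2 fell and 2 rose, without the block 0 and 1, and without replicate 2 the counts were 1 and 0. Id2 (0.64 ± 0.08) and Id1 (0.55 ± 0.10), inhibitors of basic helix-loop-helix factors, rose in all 3 pairs. The repressors downstream of Notch were divided, with Hey2, Hes5 and Hes1 lower and Hey1 higher. Hes5 fell by 0.70 ± 0.15 (adjusted p = 0.0177), and did not pass without quetiapine replicate 1, quetiapine replicate 2 or combination replicate 3 (adjusted p up to 0.0914). Hey1 (0.53 ± 0.12), Hes1 (−0.40 ± 0.10) and the lineage factors Sox10 (−0.25 ± 0.06) and Sox11 (−0.49 ± 0.11) each lost their call without at least 1 array, with adjusted p up to 0.172. The number of these factors that fell dropped to between 1 and 3 without any of the 8 arrays other than the controls and T3 replicate 1.

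Genes of cell division had changes below 0 throughout, and most of them fell. All 24 measured genes of DNA replication and S phase had changes below 0, and 16 passed the test, around a median of −0.31. The number past the test was 8 with the replicate as a random effect and 3 in the fit of all 24 arrays. All 28 measured genes of G2/M and mitosis also lay below 0, with 20 past the test and a median of −0.32. Here it was 6 with the random effect and 0 in the fit of all 24 arrays. Uhrf1, which keeps DNA methylation through replication, had 9.28, 9.08 and 9.61 with quetiapine and 8.80, 8.39 and 8.79 with the combination. Each pair fell and the groups did not overlap (−0.66 ± 0.08, 1.58-fold, adjusted p = 0.000741), which made it the 1 gene of both lists past 1.5-fold. The polymerase subunit Pola1 (−0.52 ± 0.07), the licensing factor Cdt1 (−0.49 ± 0.09) and the mitotic motor Kif11 (−0.47 ± 0.07) also fell. Mki67, which encodes the Ki-67 antigen, had 9.17, 9.23 and 9.75 with quetiapine and 8.96, 8.74 and 9.21 with the combination, groups that overlapped although each pair fell (−0.41 ± 0.08, adjusted p = 0.00828, or 0.0526 without quetiapine replicate 2). Across the whole S phase list the mean per array was 9.04, 8.97 and 9.30 with quetiapine and 8.83, 8.65 and 8.92 with the combination, and for the mitosis list 9.19, 9.06 and 9.37 compared to 8.99, 8.69 and 8.98.

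These cell cycle calls depended on how the replicates and the spread were modelled and on single arrays. None of the 52 genes passed without the block, and without the arrays of replicate 2 the counts were 1 and 0. Without replicate 1 they were 6 and 15, and without replicate 3 they were 4 and 4. The number of S phase genes that fell was 9 without combination replicate 1, 9 without quetiapine replicate 2, 7 without combination replicate 2, 6 without quetiapine replicate 3 and 9 without combination replicate 3. The number of mitosis genes was 12 without quetiapine replicate 1, 4 without quetiapine replicate 2, and 5 without combination replicate 2, quetiapine replicate 3 or combination replicate 3. In all, 6 S phase genes and 3 mitosis genes passed without any single array. Among 16 G1 cyclins, kinases and inhibitors, 3 fell, 1 without quetiapine or combination replicate 2 or with the replicate as a random effect, and 0 without the block or all of replicate 2. The kinase inhibitor Cdkn1c had 12.48, 12.47 and 12.37 with quetiapine and 11.74, 11.65 and 11.70 with the combination, an even and separate fall of 0.74 ± 0.11 (adjusted p = 0.00242, and 0.0508 without the block). The cyclin Ccnd2 (−0.44 ± 0.08) lost its call without quetiapine or combination replicate 2 (adjusted p up to 0.0646), and the pocket protein Rbl1 (−0.37 ± 0.09) without any of the 8 arrays other than the controls and combination replicate 1 (up to 0.149).

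Enzymes of cholesterol synthesis, whose product is a main lipid of myelin, showed no further change past the test. None of 18 measured enzymes rose or fell, and their changes ran from −0.12 to 0.24 around a median of 0.06. In the quetiapine arrays compared to control, which share those arrays with the present comparison, 17 of the 18 enzymes were higher, with changes of 0.17 to 1.37 and a median of 0.87. The share of all probe sets that were higher with quetiapine than in control is not given here, and the shares given above belong to the combination compared to quetiapine. Sqle, the epoxidase of squalene, changed by −0.01 ± 0.10 on adding T3 and Ebp, the isomerase of late sterols, by 0.24 ± 0.16 (95% interval 0.35 on either side). Of 17 SREBP targets outside the sterol pathway and genes of fatty acid synthesis, 4 rose and 13 did not pass. Their median change was 0.07, near that of the sterol enzymes, and 6 of the 17 lay below 0. The count that rose was 2 with the replicate as a random effect, and none rose without the block. The 4 that rose passed without any single array. Besides Thrsp and Me1 these were the fatty acid desaturases Fads2, at 9.52, 9.70 and 9.84 compared to 10.20, 10.50 and 11.02 (0.88 ± 0.11, adjusted p = 0.000849), and Fads1 (0.71 ± 0.06, adjusted p = 4.89e-05), neither of which had overlapping groups.

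Lysosomal genes rose in part, with 4 of 13 up, where 3.73% of all probe sets rose, none down and a median of 0.09. The count was 2 with the replicate as a random effect or without the block, and 1 without replicate 2. Lipa, an acid lipase of the lysosome that acts on cholesteryl esters, had 8.27, 8.22 and 8.15 with quetiapine and 9.52, 9.62 and 10.07 with the combination, more than 1 log2 unit apart throughout (1.52 ± 0.14, adjusted p = 0.000138). The cathepsin Ctsl rose by 1.04 ± 0.14 and the galactosidase Gla by 0.41 ± 0.06, while the ceramidase Asah1 (0.29 ± 0.08, adjusted p = 0.0488) lost its call without any of the 10 arrays other than control replicates 2 and 3 (adjusted p up to 0.201). In the IGF axis, where 1 of 14 genes rose and 3 fell, the receptor Igf1r fell by 0.84 ± 0.13 and the binding protein Igfbp2 by 0.68 ± 0.07, while Irs1, the adaptor below the receptor, rose by 0.70 ± 0.12. The binding protein Igfbp3 (−0.29 ± 0.08) lost its call without any of the 10 arrays other than control replicates 1 and 3 (adjusted p up to 0.166). In this axis 1 gene fell in the fit of all 24 arrays and none without the block, and none rose without replicate 1. Of 23 receptors bound by quetiapine, the adrenergic receptor Adra2a rose by 1.19 ± 0.19 (adjusted p = 0.00413) and the muscarinic receptor Chrm3 fell by 0.47 ± 0.08 (adjusted p = 0.00494), the others not passing. A count of 1 each way is close to the shares over all probe sets (3.73% and 4.17%), and without replicate 2 neither passed. Each of these had a second probe set that did not pass, at 0.40 for Adra2a and −0.01 for Chrm3. Among 18 Wnt pathway genes 1 rose, the pseudoreceptor Bambi (0.88 ± 0.10), and 3 fell. These were the receptor Lgr5 (−0.46 ± 0.11), the secreted inhibitor Sfrp1 (−0.60 ± 0.13) and the transcription factor Tcf7 (−0.48 ± 0.10). The number that fell was 0 or 1 without quetiapine replicate 1, 2 or 3 or combination replicate 3. It was 1 with the replicate as a random effect, in the fit of 24 arrays or without replicate 1, and 0 without the block or replicate 2.

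Counts in further lists were small, and counts of 1 are near the shares over all probe sets. Of 8 LXR targets and genes of cholesterol efflux 2 rose and none fell. Mylip, which marks the LDL receptor for breakdown, rose by 0.74 ± 0.15 but not without quetiapine replicate 2 or 3 (adjusted p up to 0.0734), and the phospholipid enzyme Lpcat3 by 0.22 ± 0.06, lost without any of the 10 arrays other than combination replicate 1 and control replicate 3 (adjusted p up to 0.189). Of 16 stress response genes, the factor Atf5 rose by 0.40 ± 0.07 and passed without any single array, and Atf3 rose by 0.57 ± 0.14 but was lost without either array of pairs 1 and 3 or quetiapine replicate 2 (adjusted p up to 0.141). Of 16 contractile actin genes, the tropomyosin Tpm1 fell by 0.42 ± 0.08 and passed without any single array, and 2 genes fell without control replicate 3. Atf5 did not pass with the replicate as a random effect, without the block or without replicate 1 or 2, nor did Tpm1 with the random effect, without the block or without replicate 2. Of 12 carbonic anhydrases, Car3 fell by 0.46 ± 0.12 (adjusted p = 0.0448, up to 0.198 without 1 of 7 arrays, which were both arrays of pairs 1 and 2, combination replicate 3, control replicate 2 and T3 replicate 3).

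Among markers of other cells, the astrocyte enzyme Aldh1l1 fell by 0.84 ± 0.20 and the receptor Fgfr3, which precursors also express, rose by 0.42 ± 0.11. Aldh1l1 was lost without either array of pair 1, quetiapine replicate 2 or combination replicate 3 (adjusted p up to 0.132), and Fgfr3 without quetiapine replicate 3, either array of pair 1 or any array of replicate 2 (up to 0.147). Of 14 neuron markers, the microtubule protein Map2 fell by 0.37 ± 0.08 and lost its call without either array of pairs 2 and 3 (adjusted p up to 0.105). The number of neuron markers that fell was 3 without control replicate 1 and 2 without combination replicate 1 or control replicate 3. The mean of the 14 neuron markers was 6.88 to 6.99 with quetiapine and 6.83 to 6.98 with the combination. None of the 3 measured Schwann cell markers passed. The part of these marker changes in the other results was not tested.

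The change on adding T3 was also set against the change that T3 gave without quetiapine. The contrast of the 2 changes called no probe set in either direction (0%) by limma with the block, with a smallest adjusted p of 1.00, and none in the fit without the block. At an unadjusted p under 0.05 there were 1075 probe sets with the block (3.46%) and 364 without it. The 95% interval of the difference reached 0.24 on either side for the median probe set, so that a difference of this size lies within the error for a typical gene. For Hr, T3 gave 2.60 without quetiapine and 2.42 with it, a difference of −0.17 (95% interval −0.41 to 0.06). For Dbp the difference was 0.00 (−0.25 to 0.25) and for Klf9 0.25 (−0.11 to 0.61). For Nt5e, with 3.95 and 4.76, it was 0.80 with a wide interval (−0.10 to 1.70). Across all probe sets the 2 changes correlated at 0.849, a description over features that are not independent and come from the same 3 preparations. Of the probe sets called higher here, 381 (81.4%) were also called higher for T3 compared to control, where they were 72.3% of 527. For lower calls, 107 were shared, 62.9% of those here and 55.4% of 193.

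**Figure D3:**
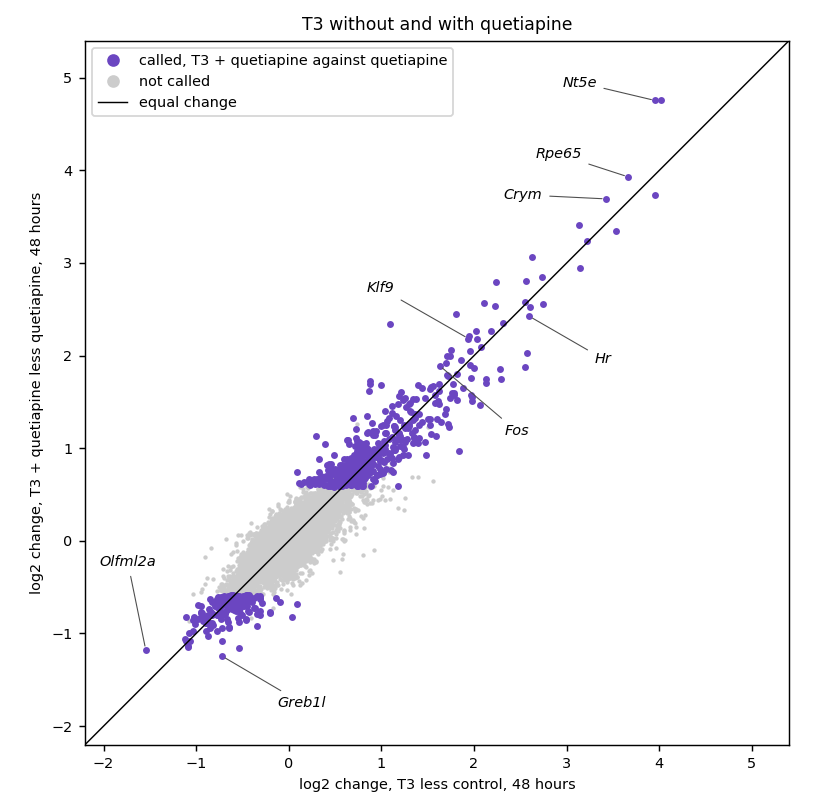
Log2 change for each of 31042 probe sets at 48 hours when T3 was added to control media (horizontal axis) and when it was added to quetiapine (vertical axis), with called probe sets in purple and a line of equal change. Points lie along the line (correlation 0.849), and no probe set passed the test of the difference.

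A few genes moved in opposite directions with quetiapine and with T3. Greb1l was 1.00 higher with quetiapine than in control (adjusted p = 0.0083), where Asxl3 was 0.46 higher (adjusted p = 0.00618) and Chrm3 0.43 higher (adjusted p = 0.0193), and all 3 fell on adding T3. Both changes use the quetiapine arrays, so that a high value there moves them in opposite directions. Without quetiapine, T3 lowered Greb1l by 0.72 and Asxl3 by 0.65, while Chrm3 changed by −0.20 (adjusted p = 0.153).

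**Figure D4:**
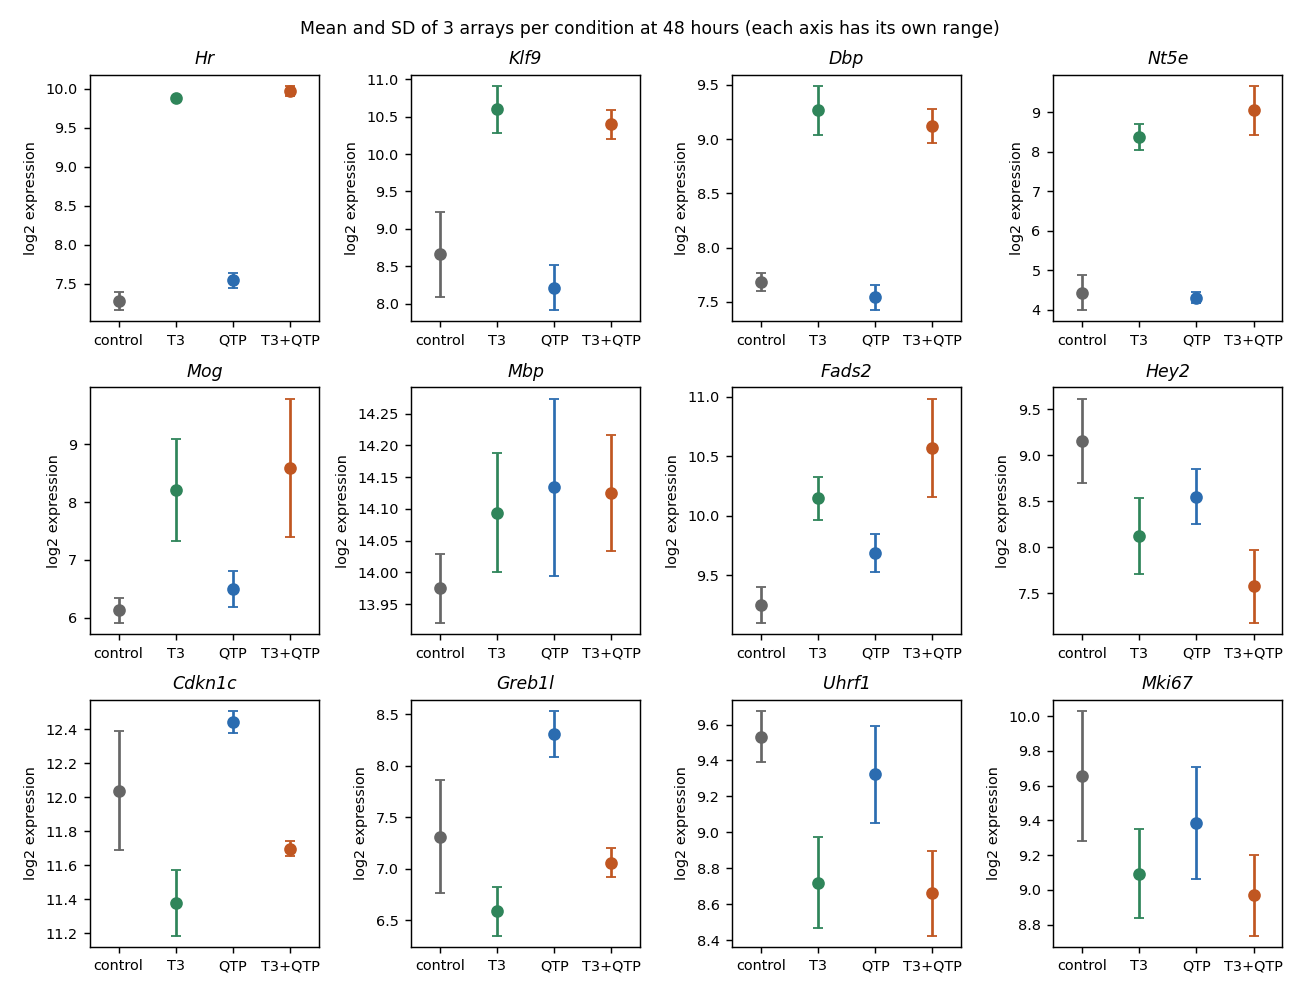
Mean log2 expression of 12 genes in the 4 conditions at 48 hours (QTP, quetiapine), with bars of 1 SD over 3 arrays that include the differences between preparations. Hr, Klf9, Dbp and Nt5e were high in both conditions with T3, Mbp stayed near 14 in all 4, and Greb1l was highest with quetiapine alone.

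The same addition of T3 was followed to 96 hours, in other arrays that came from the same 3 preparations as those of 48 hours. The study replenished the media at 48 hours, and the part of this in the differences between the times was not tested. At 96 hours 1003 probe sets were higher and 1043 lower with the combination than with quetiapine. Of the 48-hour calls, 332 higher (70.9%, or 33.1% of those at 96 hours) and 126 lower ones (74.1%, or 12.1%) were called again. The difference between the times was tested over all 24 arrays. The signed log2 change was higher at 96 hours for 224 probe sets (0.722%) and lower for 98 (0.316%). A lower signed change can be a deeper fall as well as a smaller rise. Grm3, a metabotropic glutamate receptor, turned from a fall of 0.65 ± 0.11 at 48 hours to a rise of 3.65, a difference of 4.30 ± 0.59 (adjusted p = 0.00168). Cyp26b1, which degrades retinoic acid, changed by 0.16 ± 0.10 at 48 hours and by 3.73 at 96 hours, and Tmem178a, a membrane protein, by 0.67 ± 0.26 and 3.28. Carbonic anhydrase 2, encoded by Car2, rose by 0.32 ± 0.07 and 3.18, although its rise at 48 hours was lost without quetiapine or combination replicate 2 or 3 (adjusted p up to 0.0987). The brighter second probe set of Car2 did not pass at 48 hours (0.29 ± 0.13, adjusted p = 0.223). The prothrombinase Fgl2 changed by 0.25 ± 0.07, below the test, and by 3.20. Galnt14 ran the other way, from 3.06 ± 0.18 to 1.30.

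Of the gene lists, 16 of 28 myelin genes rose at 96 hours compared to 6 at 48 hours, and 7 of 18 cholesterol enzymes compared to none. Over all 31042 probe sets, 2654 rose at 96 hours by the same limit compared to 1159 at 48 hours, so that the background count was higher too. A difference between the times passed the test at an adjusted p under 0.05 alone for 3 of the 28 myelin genes and for none of the 18 enzymes. Over all 31042 probe sets, 524 passed by this limit. Egfr, the EGF receptor (−0.76 ± 0.13 and −2.09), Igfbp2 (−0.68 ± 0.07 and −2.33) and the surface protein Igdcc4 (−0.61 ± 0.12 and −1.98) fell further by 96 hours, while the adhesion receptor Adgra1 changed by 0.13 ± 0.17 and then fell by 1.29. The fall of Igdcc4 at 48 hours was lost without quetiapine replicate 1 or 2 (adjusted p up to 0.0573). Counts for the times varied widely. Each of the 12 arrays of the contrast moved at least 1 of them by more than 1.5 times, from 81 and 31 calls (higher without the 96-hour combination array of replicate 2, lower without the 48-hour one) to 633 and 613 without the 96-hour combination array of replicate 1. Without the arrays of replicate 2 there were 2 and 0, and without the block 19 and 1.

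**Figure D5:**
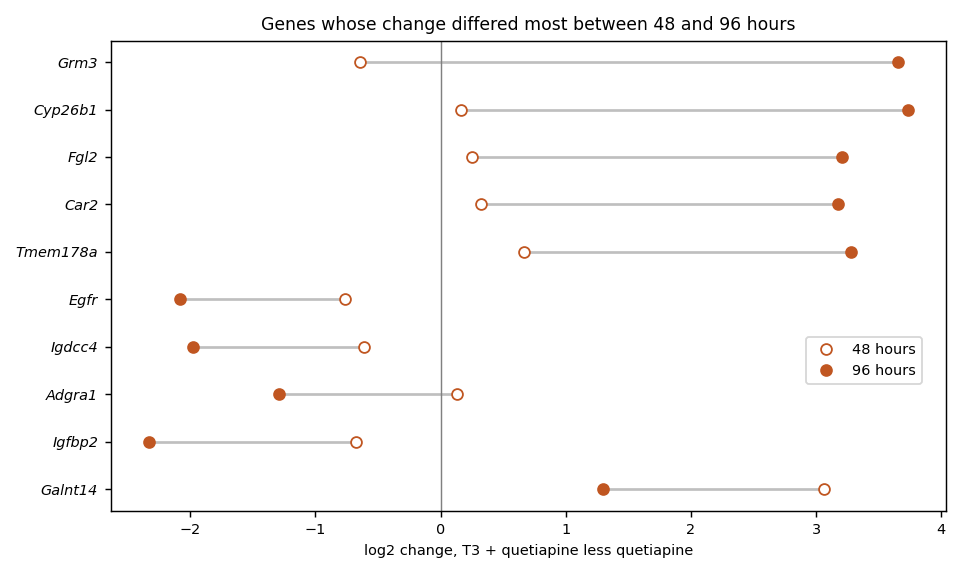
Log2 change on adding T3 to quetiapine (horizontal axis) at 48 hours (open points) and 96 hours (filled points) for the 5 genes each way whose change differed most between the times. Grm3 lay at −0.65 and 3.65 and Galnt14 at 3.06 and 1.30.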

How the data were processed

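RNA from rat OPC cultures was measured on 24 Affymetrix arrays (3 biological replicates in each of 8 conditions). The deposited values were log2 expression, which the authors made by RMA, with limma also named in the submitters' processing notes. For both tools the version was not given in the sources used here, nor was the genome build. Raw signals and the day 0 cultures were not analysed here. RMA sets all arrays to 1 distribution, so that a shift of all RNA would not be seen. Whether the highest signals on these arrays were compressed was not tested. Symbols came from the platform annotation: of 31042 probe sets, 20826 carried 1 symbol (14217 genes), 436 several and 9780 none. For arrays, their number limits the precision.

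Values were analysed in R 4.3.3 with limma 3.58.1, fitting the 12 arrays of 48 hours with 4 group means and the replicate number as a fixed block (6 residual degrees of freedom). The contrast between times used all 24 arrays with the block within each time (12 residual degrees of freedom). Two-sided p values from eBayes were corrected with the Benjamini-Hochberg method across the 31042 probe sets. The 48-hour contrasts were tested on simulated data, made with block shifts and independent error as in the fit. The contrast between times was not tested in this way. Calls needed an adjusted p under 0.05 and a fold over 1.5. "Rose" and "fell" for list members and named genes needed the adjusted p alone.

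The deposited design states that each biological replicate supplied every condition, so the number marks arrays of the same preparation. When the group means were subtracted, the remainders correlated at 0.430 to 0.777 (median 0.670) over 18 pairs of arrays with the same number at 48 hours, and at −0.681 to −0.00478 over 36 pairs with different numbers. The subtraction makes the remainders of a condition cancel out, which by itself lowers the correlations between different numbers.

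The 28 gene lists (488 members, 439 measured, each represented by the brightest of its single-symbol probe sets) and the comparison itself were chosen with earlier results of these data known. Lists are described by counts and medians, with no test of a list. Named genes were the 12 largest called rises and falls with 1 symbol and the same direction in all 3 pairs, the 5 largest each way for the contrast between times (none for the contrast with and without quetiapine, which had no calls), up to 4 members of each list past the test or the 2 largest changes where none passed, the genes named by the study for qPCR or T3 response (Klf9, Hr, Dbp, Nt5e, Mbp, Hprt1), and all thyroid hormone responsive genes. Cd9, Cnp, Mag, Opalin, Sqle, Clock, Pdgfra, Vcan, Hes1, Hey1, Sox10, Sox11, Spry4 and Tspan2 were chosen after their values were seen. Alternatives were no block, a random block, centred arrays, a filter on log2 means of 5 or less, trended and robust moderation, fits of 6 or 24 arrays, the mean of a gene's probe sets for the lists, and leaving out each array or each replicate. Figures were drawn with matplotlib 3.10.9.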

Additional observations from a re-analysis of the deposited data

Results flagged for a closer look

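For 13 of the genes named in the text, the change on adding T3 to quetiapine differed between 48 and 96 hours. This was by limma's test of the difference itself (adjusted p under 0.05 over all probe sets). Of the 13, 10 were named because they had the largest differences past this test, so that their passing was fixed by that choice. Over all 31042 probe sets, 524 passed by this limit. Values are given here as the log2 change at 96 hours less that at 48 hours. The difference was 4.30 for Grm3, 3.57 for Cyp26b1, 2.95 for Fgl2, 2.85 for Car2 and 2.61 for Tmem178a. It was −1.76 for Galnt14, −1.66 for Igfbp2, −1.43 for Adgra1, −1.37 for Igdcc4, −1.32 for Egfr, −1.27 for the peptide transporter Slc15a1, −0.92 for Cdkn1c and −0.85 for Flvcr2. Slc15a1 and Flvcr2 were higher with the combination at both times (3.41 and 2.14, 2.57 and 1.72), while Cdkn1c fell by 0.74 at 48 hours and by 1.66 at 96 hours. Leaving out 1 array ended the call of Adgra1 for 16 of the 24 arrays (adjusted p up to 0.166) and that of Igfbp2 for 7 (up to 0.0744). The 7 were quetiapine replicates 1 and 3 and combination replicates 1 and 2 of 48 hours, and quetiapine replicates 2 and 3 and combination replicate 2 of 96 hours. None of the 10 genes that were named for this difference passed it without the arrays of replicate 2. With 3 arrays in a condition, single arrays far from their group were not looked for.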

How the results depend on the processing

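With no replicate block, 173 probe sets were called higher and 31 lower with the combination than with quetiapine at 48 hours, and 19 and 1 in the contrast between times. A random block gave 138 and 31 for the times. Leaving out an array or a replicate gave 242 to 491 higher and 71 to 223 lower calls at 48 hours, the fewest without replicate 2. For the times it gave 2 to 633 higher and 0 to 613 lower. Other settings kept the 2 counts of called probe sets at 48 hours within 1.5 times, and the contrast with and without quetiapine had no call in any. Counts over gene lists moved more: a random block gave 8 S phase genes that fell in place of 16, 6 mitosis genes in place of 20, 3 myelin genes that rose in place of 6 and 2 lineage factors that fell in place of 5, and the fit of 24 arrays gave 3 S phase and 0 mitosis genes. Of 90 named genes past the test at 48 hours, 28 passed without the block and 63 without every single array. Of the named genes, signs turned for 7 uncalled ones, on leaving out arrays or replicates: Pmvk ran from −0.0124 to 0.330, Ngfr from −0.164 to 0.0233, Mbp from −0.0344 to 0.0255, Hprt1 from −0.0945 to 0.0339, Camk4 from −0.0483 to 0.228, Shh from −0.0110 to 0.0527 and Aldh1a3 from −0.00798 to 0.0462.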

Other observations

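The largest change of any probe set, 4.77, belonged to one without a symbol in the annotation used. In all, 101 of the probe sets called higher and 54 of those called lower carried no single symbol and are described by count alone. Further probe sets of named genes mostly moved less than the one shown. Klf9 had 2 more, with changes of −0.01 to 1.26, of which 1 rose, and Flywch2 had 2 more at −0.01 to 1.53. Mobp, Nr1d2 and Thrsp had 2 more probe sets each, and all of them rose. Mbp had 2 more, which changed by 0.02 and 0.09 and did not pass the test. The second probe set of Hes5 changed by 0.12 and that of Igdcc4 by 0.00, against falls on the one shown.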
